A study of Drosophila melanogaster with 5 samples.

Results

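The intracellular integrin adhesion complex was followed through 10 genes, rhea, Fit1, Fit2, Ilk, stck, parvin, Vinc, Pax, by and Zyx. They were chosen by their FlyBase symbols as the cytoplasmic proteins that sit on the tail of an integrin. The rule itself uses no measured value, but the choice was made with earlier results of these data known. All 10 were found among the 17807 genes of the count table, and all 10 were among the 11624 genes whose counts summed to at least 10 and which were tested. RNA came from the hemolymph, the blood, of larvae aged 96 to 102 h. The control larvae were Cg-Gal4 > CS, in which the Cg-Gal4 driver was crossed to the wild-type strain Canton-S, and gave 2 libraries. The other larvae were Cg-Gal4 > UAS-abd-A, in which the same driver expresses the Hox gene abd-A, and gave 3 libraries. Each library was made from the pooled hemolymph of 20 larvae. Cg-Gal4 is active in the fat body as well as in blood cells, so abd-A expression was not confined to hemocytes, and the controls carried the driver but no UAS transgene.

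Integrins are receptors of an alpha and a beta subunit that bind the extracellular matrix and have short tails with no enzyme activity of their own. Talin and kindlin bind the beta tail and activate the receptor, and the ILK, PINCH and parvin proteins form a stable scaffold beside them. Vinculin, paxillin, tensin and zyxin then tie the site to actin filaments and to signaling proteins. In Drosophila these proteins are best known from muscle attachment and the adhesion of wing surfaces, and integrins are abundant in lamellocytes, the large flat blood cells that encapsulate foreign bodies.

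Total counts on genes were 1252969 and 2567624 in the controls and between 3848911 and 4959111 in the abd-A libraries. The paper reports a sequenced depth per sample well above these totals, with most reads aligned. The cause of this gap was not tested. Values are given as CPM, read counts scaled by library size with TMM, and a gene was called upregulated or downregulated at an adjusted p under 0.05 (edgeR's quasi-likelihood test, Benjamini-Hochberg adjustment) and a change of at least 2-fold. SE is the standard error of a log2 fold change. Control replicate 1 and control replicate 2 had a rank correlation of 0.798 across genes, against 0.960 to 0.964 between abd-A libraries. The targeted gene abd-A had 0 and 21 counts in the controls and 474 to 638 counts with abd-A. Of 3 markers of all hemocytes tested, He was upregulated (log2 2.25), and srp (log2 0.15) and Pvr (log2 -0.08) were not called. All 9 lamellocyte markers were upregulated, against 11.0% of all genes tested. Their sum went from 1253 and 1704 CPM in the controls to between 19510 and 22640 CPM with abd-A. Of 9 plasmatocyte markers tested, 6 were downregulated, against 12.7% of all genes tested. The whole list of 10 plasmatocyte markers summed to 34920 and 38510 CPM in the controls and to between 11270 and 13630 CPM with abd-A. All 6 crystal cell markers were downregulated, against the same 12.7% of all genes, from a sum of 9401 and 11490 CPM to between 596 and 903 CPM. Markers of other tissues were counted in both groups, and those of muscle, fat body and epidermis summed higher in the controls. Whether such sums reflect carried-over tissue or changed expression was not tested. The 12 larval muscle markers summed to 2069 and 4477 CPM in the controls and to between 549 and 801 CPM with abd-A, and the 7 fat body markers to 2469 and 20370 CPM against 68.7 to 286 CPM. The 7 epidermis markers summed to 1110 and 2334 CPM against 173 to 280 CPM, and the 6 salivary gland markers did not exceed 22.7 CPM in any library, with Sgs4 and Eig71Ee at 0 in both controls. Over all genes, the size factors of DESeq2, upper-quartile scaling and library totals moved the calls from 1274 upregulated and 1481 downregulated to between 989 and 1045 upregulated and between 1696 and 1724 downregulated. TMM without the 20 most abundant genes gave 1276 and 1478. The library kit marks strand, and the strand setting of the counting is not given in the sources used here. In every library, genes annotated as antisense RNA had more counts per exonic base than the coding genes they overlap in 81.2% to 85.5% of pairs. Whether the counts were taken from the strand opposite to each gene was not tested, and this bears on the counts of all 10 genes, also those with no overlapping neighbor.

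Most of the adhesion complex was higher with abd-A. Of the 10 genes, 7 were called upregulated, which are rhea, Fit1, Ilk, stck, parvin, Vinc and Pax, where 11.0% of all genes tested were called upregulated. The tensin gene by was the 1 gene called downregulated, against 12.7% of all genes tested. Fit2 and Zyx were not called. The median log2 fold change of the 10 genes was 2.18, in a range from -2.41 to 4.06, and the median of all genes tested was -0.17. All 3 abd-A libraries lay above both controls for 8 of the genes, as they did for 27.3% of all genes tested. They lay below both controls for 1 gene, against 29.3% of all genes tested, and overlapped the controls for Zyx. Summed over the 10 genes the level was 795.5 and 1120 CPM in the controls and 6152, 5450 and 6101 CPM in abd-A replicates 1, 2 and 3. The increase ran alongside that of the 9 lamellocyte markers, 3 of which (mys, Itgbn and ItgaPS4) are integrin genes, and their part in it was not tested. In pooled hemolymph, a change in the number of cells of a type and a change in the RNA per cell cannot be told apart.

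**Figure D1:**
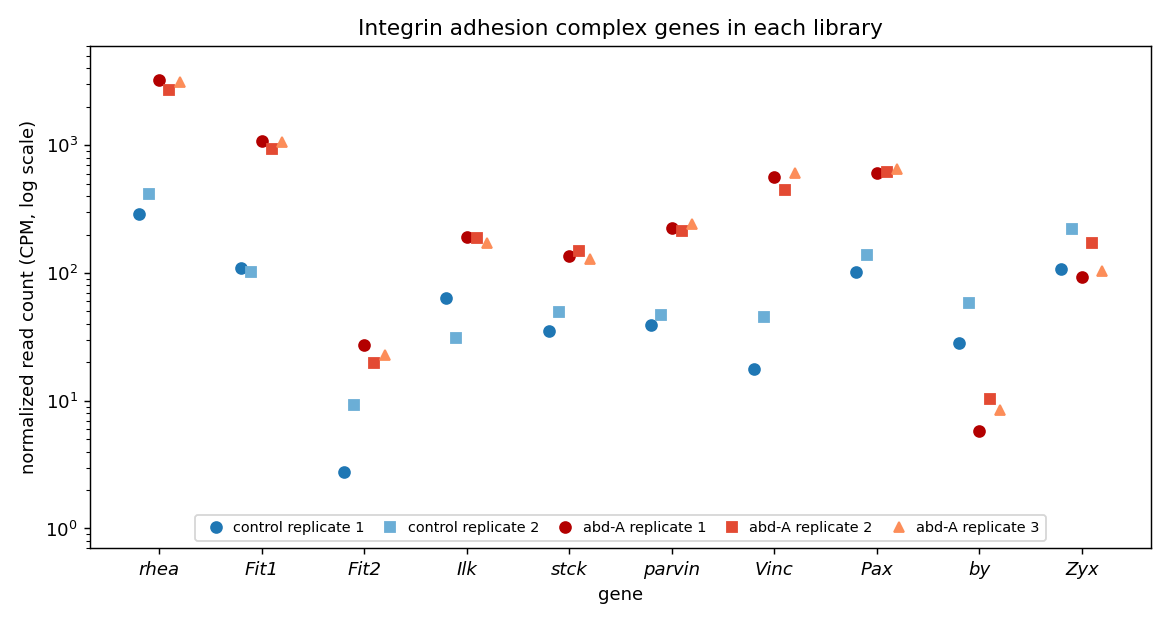
Normalized read count in CPM on a log axis for each of the 10 genes, with 1 point per library (2 control, 3 abd-A). The abd-A points lie above both control points for 8 genes, below both for by, and overlap them for Zyx.

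Talin and the kindlins, which bind the integrin beta tail, were the first group. The talin gene rhea (FBgn0260442, chromosome 3L of dm6, 8545001 to 8574409) encodes the large protein that links the beta tail to actin. It had 288.5 and 417 CPM in the controls and 3221, 2698 and 3106 CPM in the abd-A libraries. Every abd-A library was more than 6 times the higher control. This was an 8.51-fold increase (log2 3.09, SE 0.26, adjusted p = 7.5e-05). Fit1 (FBgn0035498, chromosome 3L, 4103564 to 4107116) encodes a kindlin, a FERM-domain partner of talin. It had 110 and 102 CPM in the controls, by their ratio the closest pair of control values among the 10 genes. In the abd-A libraries it had 1085, 938 and 1057 CPM, a 9.68-fold increase (log2 3.27, SE 0.23, adjusted p = 2.8e-05). The groups of Fit1 were far apart and each was tight.

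Fit2 (FBgn0036688, chromosome 3L, 17024328 to 17027117), the second kindlin gene of the fly, was measured at a much lower depth. Its reads numbered 4 and 24 in the controls and 122, 73 and 108 with abd-A. This corresponds to 2.75 and 9.31 CPM against 27.3, 19.9 and 23.0 CPM, so that the groups did not overlap but the controls differed from each other. The log2 fold change of 1.89 had a 95% interval from 0.48 to 3.29 and an adjusted p of 0.0518, and Fit2 was not called. Without control replicate 2 it was 3.07 with an adjusted p of 0.00195, and the adjusted p was 0.0245 with no count filter and 0.0413 in the DESeq2 Wald test. Over all 14 alternatives in which Fit2 was tested, the adjusted p ranged from 0.00195 to 0.192. Reads per kilobase of Fit1 were 31.4 and 8.64 times those of Fit2 in the controls and 31.2, 37.1 and 36.1 times those of Fit2 with abd-A. Control replicate 1, with its 4 counts of Fit2, lay at the abd-A ratios, and the groups overlapped.

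The genes of the ILK, PINCH and parvin scaffold all rose, each by a smaller factor than rhea and Fit1. A test of the difference between genes was not run. Ilk (FBgn0028427, chromosome 3L, 21216901 to 21219240) encodes integrin-linked kinase, a pseudokinase that holds the scaffold together. It had 63.2 and 31.0 CPM in the controls and 192, 188 and 172 CPM with abd-A. The lowest abd-A library was well above the higher control, although the controls differed by a factor of 2. The log2 ratio of the groups was 1.99 (SE 0.32, adjusted p = 0.00218), and it was 2.57 without control replicate 1 and 1.54 without control replicate 2. The PINCH gene stck (FBgn0020249, chromosome 3R, 8356978 to 8359964) encodes an adaptor made of LIM domains that binds ILK. It had 35.0 and 49.7 CPM in the controls and 135, 149 and 129 CPM with abd-A. Its 3.23-fold increase (log2 1.69, SE 0.26, adjusted p = 0.00186) was the smallest among the 7 upregulated genes.

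The parvin gene (FBgn0052528, chromosome X, 19746041 to 19748458) encodes the actin-binding partner of ILK. Its values were 39.2 and 46.9 CPM in the controls and 226, 212 and 243 CPM with abd-A. Every abd-A value exceeded both controls, and parvin rose 5.25-fold (log2 2.39, SE 0.24, adjusted p = 0.000167). On the opposite strand, asRNA:CR45501 shares 269 of the 1840 exonic bases of parvin. Counts per kilobase of this antisense gene were 15.5 and 8.15 times those of parvin in the controls and 4.84 to 6.41 times with abd-A. It was itself called upregulated (log2 1.39, SE 0.25, adjusted p = 0.00408). With the strand setting unknown, reads from the shared bases of the 2 genes cannot be told apart, and the wider doubt about strand applies to the rest of parvin as to the other genes. Taken per kilobase, parvin made up 29.6% and 36.0% of the scaffold genes in the controls and 39.2% to 45.4% with abd-A. The share of Ilk was 39.6% and 19.7% in the controls and 26.6% to 29.4% with abd-A, within the range of the controls, and the share of stck overlapped between the groups.

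Vinculin and paxillin, which are recruited to the talin and scaffold layer, also rose. Vinc (FBgn0004397, chromosome X, 2214347 to 2222567) encodes the protein that binds both talin and actin under tension. Its reads numbered 26 and 116 in the controls and 2521, 1640 and 2835 with abd-A. In CPM this was 17.9 and 45.0 against 564, 447 and 603, so that the groups were far apart while the controls differed from each other. The 16.6-fold increase (log2 4.06, SE 0.39, adjusted p = 0.000138) was the largest of the 10 genes and higher than that of 97.2% of all genes tested. Its size depended on the controls, at 4.91 without control replicate 2 and 3.58 without control replicate 1. Pax (FBgn0041789, chromosome 2L, 19400753 to 19426596) encodes a LIM-domain scaffold on which kinases and GTPase regulators assemble. It had 102 and 137 CPM in the controls and 604, 616 and 657 CPM with abd-A, without overlap, and rose 5.20-fold (log2 2.38, SE 0.23, adjusted p = 0.00015). Alp12 shares 299 exonic bases with Pax on the opposite strand and had at most 73 counts in any library.

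**Figure D2:**
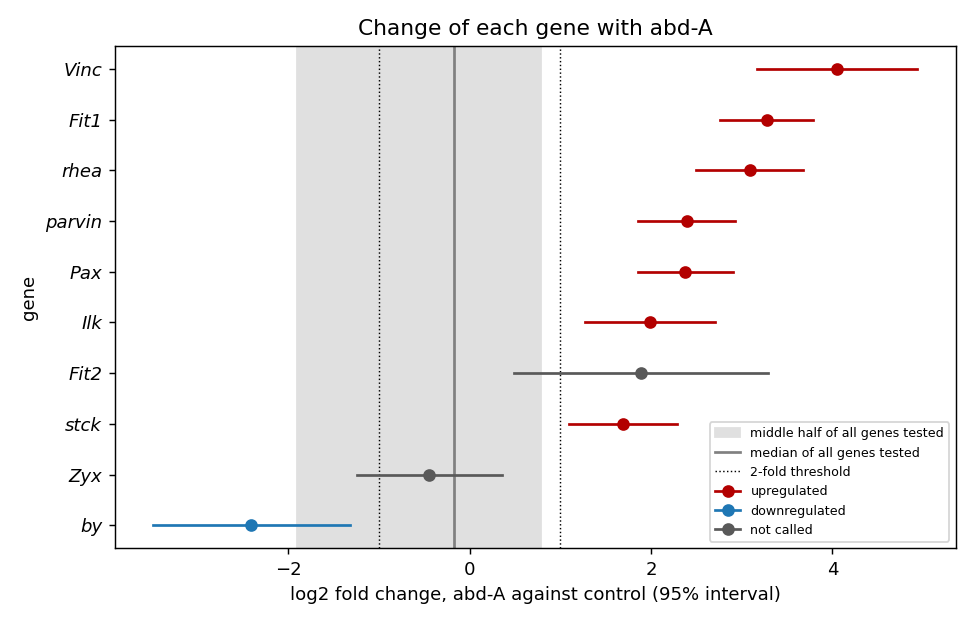
Log2 fold change of each gene, abd-A against control, as a point with its 95% interval. The grey band covers the middle 50% of all genes tested, from -1.90 to 0.79, and the intervals of the 7 upregulated genes lie to its right.

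The tensin gene by (FBgn0000244, chromosome 3R, 9528238 to 9533011) moved the other way. Tensin binds integrin tails and actin and is needed in the fly for the adhesion of wing surfaces. Its reads numbered 41 and 151 in the controls and 26, 38 and 40 in the deeper abd-A libraries, which is 28.2 and 58.6 CPM against 5.81, 10.4 and 8.51 CPM. All abd-A values of by were below both controls. The log2 ratio was -2.41 (SE 0.48, adjusted p = 0.00638), and it was -1.78 without control replicate 2, with an adjusted p of 0.0199 in the same edgeR test. Markers of larval muscle moved with by. All 12 of them had abd-A libraries below both controls, as did 29.3% of all genes tested. Of the 12, 11 were called downregulated (median log2 ratio -2.07), against 12.7% of all genes tested. None of the 12 was at 0 in all libraries of a group. Their sum was higher in control replicate 2 than in control replicate 1, and highest among the abd-A libraries in abd-A replicate 2, as was the level of by. The summed fat body and epidermis markers had the same features, lower with abd-A and highest within each group in control replicate 2 and abd-A replicate 2. The part of muscle, fat body or epidermis RNA in the values of by was not tested.

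Zyx (FBgn0011642, chromosome 4, 1057365 to 1065001) encodes zyxin, a LIM protein of actin fibers that also acts in Hippo signaling. It had 108.5 and 223 CPM in the controls and 92.8, 172 and 103 CPM with abd-A. The groups overlapped, and Zyx was not called (log2 ratio -0.44, 95% interval from -1.25 to 0.36, adjusted p = 0.378). The sign depended on 1 library, at 0.17 without control replicate 2 and -0.87 without control replicate 1. The lipophorin gene apolpp, expressed in the fat body, shares 96 of the 2377 exonic bases of Zyx on the opposite strand. Its level was 357 and 2450 CPM in the controls and 798, 1518 and 483 CPM with abd-A. Control replicate 2 was highest and abd-A replicate 2 second for Zyx and for apolpp. The sum of the fat body markers was also highest in control replicate 2, and within the abd-A group in abd-A replicate 2. Not every single marker shared this order, and Apoltp was highest in abd-A replicate 2. Of the 7 fat body markers, 6 were called downregulated, against 12.7% of all genes tested. The lipid transfer gene Apoltp was the fat body marker not called. None of the 7 was at 0 in all libraries of a group. Whether reads of apolpp or fat body RNA entered the counts of Zyx was not tested.

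**Figure D3:**
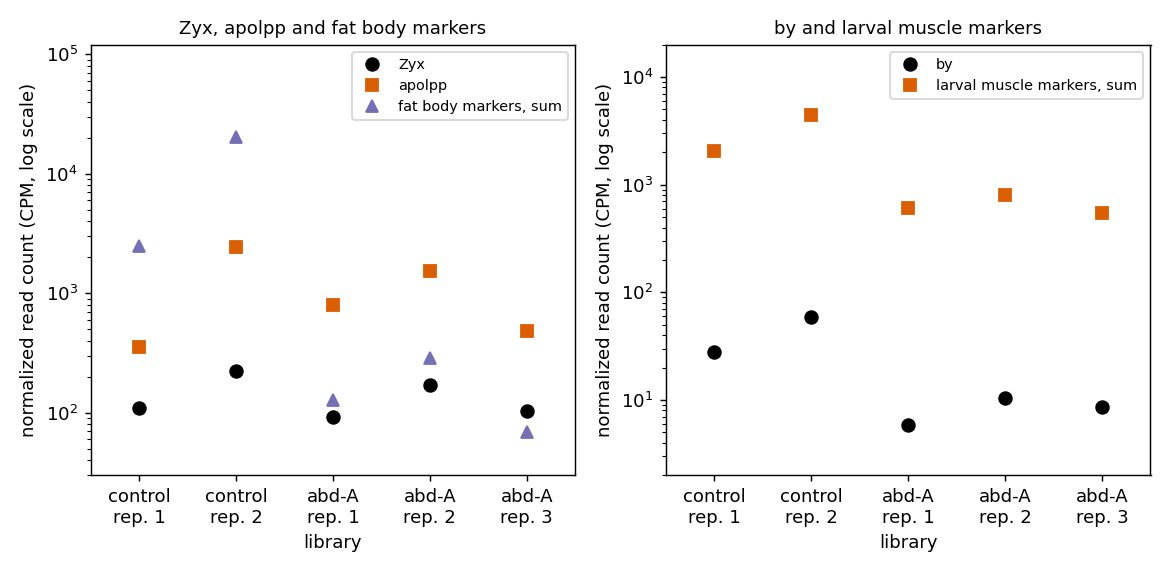
Normalized read counts in CPM on a log axis, 1 point per library. On the left are Zyx, its opposite-strand neighbor apolpp and the sum of the 7 fat body markers, and on the right by and the sum of the 12 larval muscle markers. Control replicate 2 holds the highest value in each of the 5 series.

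Levels of different genes can be compared only per length, for which CPM was divided by the kilobases of exon (RPKM). In the controls Zyx was highest, at 45.7 and 93.8 RPKM, and both values lay above every other gene. Below it rhea, Fit1, Pax, stck, parvin and Ilk had mean levels from 31.8 to 21.2 RPKM, and no neighbors in that order were separated by their libraries. Then followed by at 5.90 and 12.3 RPKM and Vinc at 4.54 and 11.4 RPKM, which overlapped, and Fit2 at 0.98 and 3.34 RPKM. With abd-A the order was different. Fit1 at 289 ± 21.9 RPKM (SD, n = 3) and rhea at 271 ± 24.8 RPKM (SD, n = 3) were highest and overlapped each other. Pax at 149 ± 6.64, Vinc at 137 ± 20.7 and parvin at 123 ± 8.38 RPKM (SD, n = 3 each) came next, and neighbors among them overlapped. They were followed by stck at 87.1 ± 6.56 and Ilk at 82.9 ± 4.89 RPKM (SD, n = 3 each), then by Zyx at 51.6 ± 18.1, Fit2 at 8.38 ± 1.33 and by at 1.72 ± 0.48 RPKM (SD, n = 3 each), each separate from the next.

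The composition of the group shifted accordingly. Of the summed RPKM of the 10 genes, rhea took 12.4% and 12.9% in the controls and 21.3% to 23.7% with abd-A. The share of Fit1 was 14.7% and 9.91% in the controls and 23.1% to 24.9% with abd-A. Vinc went from 2.16% and 3.93% to between 9.93% and 12.5%. The share of Zyx was 21.7% and 32.3% in the controls and 3.18% to 6.32% with abd-A. The shares of Pax, at 11.2% and 11.6% in the controls and 11.7% to 12.8% with abd-A, and of parvin, at 8.77% and 10.1% against 9.99% to 10.7%, lay close together. Shares of a sum are not independent of one another, and these are given as a description without a test.

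**Figure D4:**
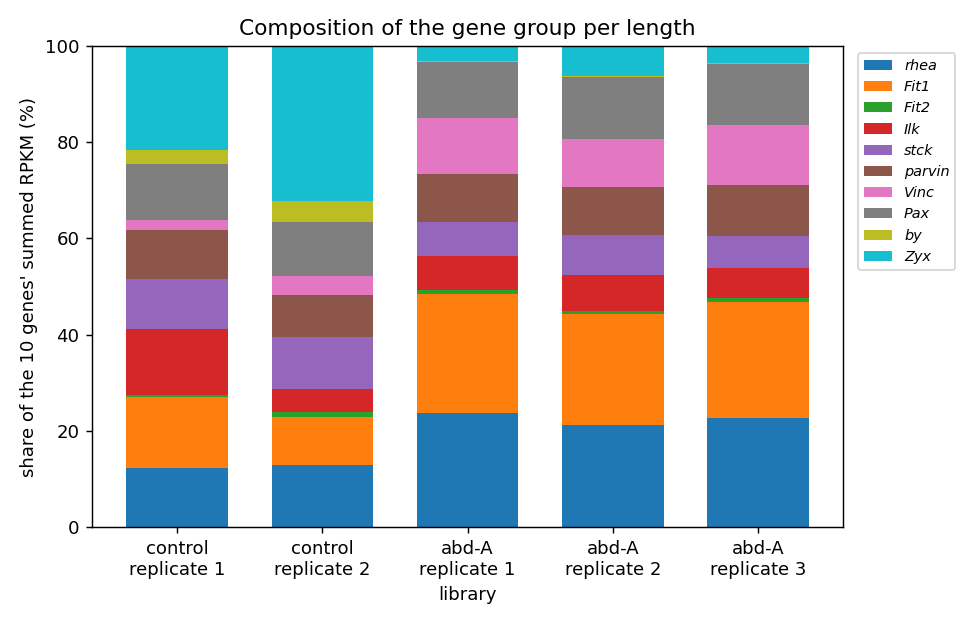
Share of each gene in the summed RPKM of the 10 genes, in percent, with 1 bar per library. Zyx takes 21.7% and 32.3% of the control bars and at most 6.32% of the abd-A bars, where rhea and Fit1 each take more than 21%.

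Genes around the complex were taken from lists of integrin receptors, signaling partners, actin linkers and matrix ligands. Over all genes tested, 11.0% were called upregulated and 12.7% downregulated. Of the 7 integrin receptor genes, 5 were called upregulated and none downregulated, with a median log2 fold change of 3.59. The largest increases were those of the alpha subunit genes ItgaPS4, at 6.05 (SE 0.54, adjusted p = 9.5e-05), and ItgaPS5, at 4.67 (SE 0.28, adjusted p = 1.3e-05). The alpha subunit genes if and scb were not called, and scb had 0 counts in control replicate 1. Without control replicate 1, 1 receptor gene was called downregulated. Of the 14 signaling partners tested, 5 were upregulated and 1 downregulated, with a median of 0.75. CAP, which encodes a vinculin-binding adaptor with SH3 domains, went from 62 and 97 reads in the controls to 4121, 2890 and 4387 reads with abd-A (log2 4.46, SE 0.25, adjusted p = 1.1e-05). Rap1, a small GTPase that acts on integrin activation, also rose (log2 2.54, SE 0.26, adjusted p = 0.000191). The downregulated gene was wech, whose product links talin to ILK in muscle attachment, with a log2 ratio of -1.18 (SE 0.29, adjusted p = 0.0153). Leaving out any 1 of the abd-A libraries, or control replicate 2, removed the call of wech, and without abd-A replicate 1 the number of upregulated partners was 3. The focal adhesion kinase gene Fak, named here after its values were seen, was not called (log2 0.50, SE 0.26, adjusted p = 0.172).

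Among the 12 actin linkers and regulators tested, 5 were upregulated and 3 downregulated, with a median of 0.61. The largest increases were those of cher, the gene of filamin, at 3.08 (SE 0.26, adjusted p = 7.1e-05), and tsr, the gene of the actin-severing protein cofilin, at 2.52 (SE 0.35, adjusted p = 0.000941). The downregulated genes included Zasp66, whose product sits in muscle Z-discs, at -1.46 (SE 0.42, adjusted p = 0.0318), and ena, which promotes filament growth, at -1.13 (SE 0.22, adjusted p = 0.0058). Without abd-A replicate 1, or without control replicate 2, 1 gene of this list was downregulated. Of the 9 matrix ligands, 3 were called downregulated and 0 upregulated, with a median of -0.85. These were the laminin gene LanA and the collagen IV genes Col4a1, at -1.64 (SE 0.21, adjusted p = 0.000729), and vkg, at -1.19 (SE 0.21, adjusted p = 0.00356). Col4a1 and vkg are also in the plasmatocyte marker list, of which 6 of 9 tested genes were downregulated, and cher, mys, Itgbn and ItgaPS4 are in the lamellocyte list, of which 9 of 9 were upregulated. Their part in these counts was not tested.

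**Figure D5:**
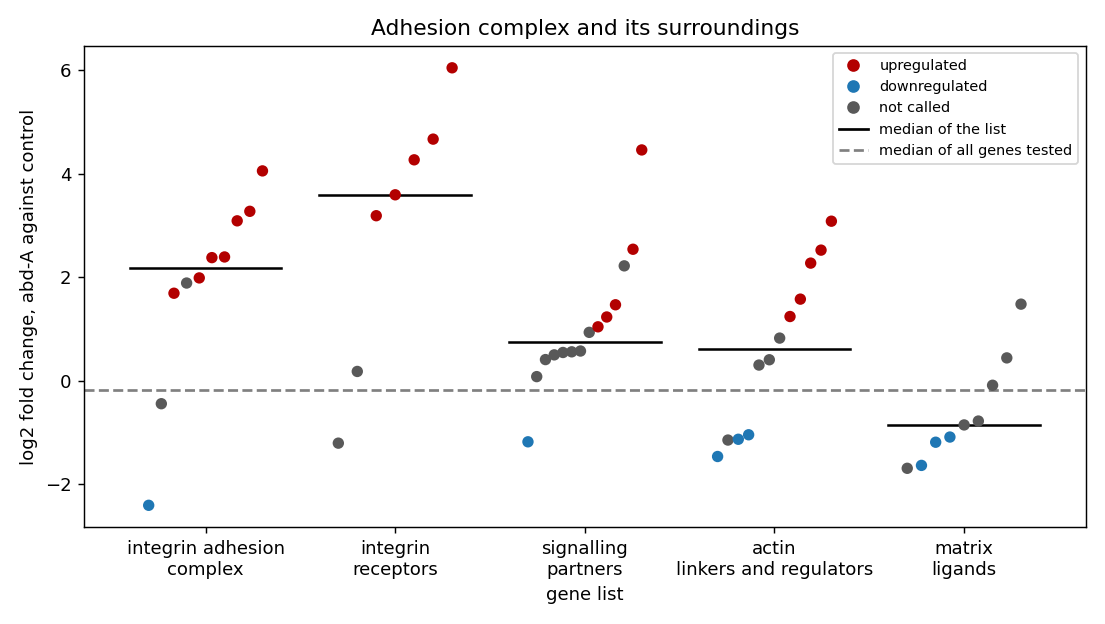
Log2 fold change of each gene, abd-A against control, for the 10 complex genes and the 4 surrounding lists, colored by the edgeR call. Black lines are list medians, from 3.59 for integrin receptors to -0.85 for matrix ligands, and the dashed line is the median of all genes tested at -0.17.

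In their gene models 3 of the complex genes, Fit1, Fit2 and by, consist of a single exon block. For 5 of the 10 genes, Ilk, Fit1, Fit2, Vinc and by, no exonic base is overlapped on the opposite strand. The genes whose pattern over the 5 libraries lay closest to the median pattern of the complex were CG2747, Fas3 and Itpr, by the distance of centered log2 CPM among 4338 genes. They had log2 fold changes of 2.25, 2.26 and 2.21, and values near the complex median follow from the way these genes were chosen. Fas3 encodes an immunoglobulin-domain adhesion protein, and Itpr the inositol trisphosphate receptor of the endoplasmic reticulum.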

How the data were processed

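Hemolymph RNA of 2 Cg-Gal4 > CS and 3 Cg-Gal4 > UAS-abd-A pools was sequenced with a strand-marking kit. Per the submitters' processing notes, reads were checked with FastQC 0.11.7, mapped to dm6 with STAR 2.5.2 and counted with HTSeq 0.11.2, and the authors deposited unnormalized counts for each gene. The annotation release and strand setting of the counting are not given in the sources used here. Genes annotated as antisense RNA had 5.57 to 10.5 times the counts per exonic base of the coding genes they overlap (median per library). Counting from the strand opposite to each gene is therefore an open doubt about every count printed, which was not tested. Symbols, coordinates and exon lengths came from Ensembl release 115 in dm6 coordinates, which held 17710 of the 17807 identifiers.

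Genes with at least 10 counts over the 5 libraries were tested with edgeR 4.0.16 (TMM, quasi-likelihood F-test, R 4.3.3), without covariates, with Benjamini-Hochberg adjustment over all 11624 genes. Standard errors were derived from the F statistic. A count of 3 corresponds to 0.638 to 2.06 CPM. The libraries are labeled as numbered replicates, and the tests treat them as independent. Whether their pools came from separate crosses or collections is not given in the sources used here. An exact permutation test of 2 against 3 libraries cannot give a one-sided p below 0.1. Alternatives were other scalings, count filters, the DESeq2 1.42.0 Wald test, limma-voom 3.58.1, a replicate block, each library left out and no fold threshold. The fit was also run on simulated data, whose outcome is not reported here, and no conclusion is drawn from it. Promoter and protein sequences were not used here.

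The members, lists and tests were chosen with earlier results of these data known. All 10 complex genes are named. From each list the 2 genes with the largest increase and the 2 with the largest decrease among those called are named, and the 3 genes with at least 100 mean counts closest to the median pattern (log2 of CPM plus 1). Names outside this rule were chosen after their values were seen. Of the list names, rtGEF, zip and Nplp2 were not analysed here.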

Additional observations from a re-analysis of the deposited data

How the results depend on the processing

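The 7 upregulated complex genes and the downregulated gene by kept their call and direction under all 15 alternative fits and with no fold threshold, with between 7 and 8 upregulated. The median log2 fold change of all 10 complex genes, 2.18, became 1.99 with library totals, 2.03 with the size factors of DESeq2, 2.00 with upper-quartile scaling, 2.12 with filterByExpr, 2.24 with at least 10 counts in every library (9 genes tested), 2.03 in the DESeq2 Wald test, 2.27 with limma-voom and 2.17 to 2.57 with 1 library left out. The median of all genes moved from -0.17 to between -0.32 and -0.36 with size factors, upper-quartile scaling or library totals, and stayed at -0.17 with TMM without the 20 most abundant genes. The complex median was 2.34 to 2.35 above it under these 4 scalings. Zyx alone turned direction, to 0.17 without control replicate 2, against -0.87 without control replicate 1. Over all genes, 911 were downregulated with at least 10 counts in every library. With 1 library left out, 742 to 2318 were upregulated and 793 to 2118 downregulated, where a lone control is assumed to vary like the abd-A libraries. Replicate numbers are shared, and whether same-numbered pools were made together is not given in the sources used here. The deviations of same-numbered libraries had correlations of 0.02 and -0.02. With 2 controls the deviations of one mirror those of the other, so these values cannot decide whether the pools were paired. A replicate block gave 831 downregulated genes, with 7 complex genes upregulated and 1 downregulated. Under the block the signaling partners had 3 upregulated and 0 downregulated, and the actin and matrix lists 0 and 1 downregulated, while with no fold threshold 5 matrix ligands were downregulated. The lowest counts in single libraries were 4 and 24 for Fit2 in the controls, 26 for Vinc in control replicate 1 and 26 for by in abd-A replicate 1.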
